A study of Mus musculus with 6 samples.

Results

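The TRIM genes encode a family of tripartite motif proteins, to which Pml itself (TRIM19) belongs. Rows of the deposited expression table were taken as members when their symbol began with Trim followed by a digit. Pml was kept as the check of genotype and Trim28, a heterochromatin corepressor, was left out. This gave 66 members among 24421 genes. Of these, 36 averaged 1 CPM or more (reads per 1000000 reads counted in genes) over the 4 libraries and were tested, 26 were detected below that level and 4 had no read. That level was reached by 54.5% of the members and by 52.0% of all genes in the table.

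Polyadenylated RNA was sequenced from E14 mouse embryonic stem cells, a male line derived from the early embryo, that were either wild type (n = 2 libraries) or carried the genotype Pml-/- (n = 2 libraries). All 4 libraries came from cells given 10 µM paraquat, a compound that cycles electrons to oxygen and so makes superoxide, for 15 h, in medium with serum, leukemia inhibitory factor, CHIR99021 (an inhibitor of GSK3) and PD0325901 (an inhibitor of MEK). There were no untreated libraries, so the comparison is of genotypes under paraquat and not of the response to it. The 2 chromatin samples of an APEX-PML knockin line were not analysed here. The labels do not give the number of knockout clones or say that libraries of a group were separate cultures. The p-values therefore cover the spread between these libraries alone, which may be technical.

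TRIM proteins share an N-terminal arrangement of a RING finger, 1 or more B-boxes and a coiled coil, and the RING finger usually makes them ubiquitin or SUMO ligases. What follows the coiled coil sets the class: a PRY-SPRY domain that binds other proteins, NHL repeats that bind RNA or protein, a PHD finger with a bromodomain that reads histone tails, or another module. Members were put into these classes from general knowledge of the family and not from the files, and Trim30e-ps1 and Trim80 were left unclassed. Many PRY-SPRY members act in antiviral defence and are induced by interferon. In stem cells Trim71 (also called LIN41) represses messenger RNAs.

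The wild-type libraries held 31384794 and 44130093 reads, the knockout libraries 38150397 and 43715807, so that 1 CPM was 31.4 to 44.1 reads. The Pml transcript stood at 238 and 228 CPM in the wild-type libraries and at 78.7 and 89.7 CPM in the knockout libraries, which set the genotypes apart as labelled (log2 fold change -1.46, SE 0.059, limma adjusted p = 4.43e-10). All 8 embryonic stem cell markers were expressed, with summed levels of 6723 to 6837 CPM in the wild-type libraries and 6891 to 6903 CPM in the knockout libraries; 2 of them, Zfp42 and Tfcp2l1, passed the test, but Tfcp2l1 missed it when library 1 of either genotype was left out (adjusted p = 0.319 for wild type and 0.0509 for the knockout; range 9.65e-10 to 0.474 over 11 alternatives). Markers of other cells were low: primitive endoderm summed to 5.76 to 6.66 CPM in the wild-type libraries and 5.74 to 7.89 CPM in the knockout libraries, mesoderm to 0.89 to 1.18 and 0.98 to 1.07 CPM, trophoblast to 0.51 to 1.246 and 0.87 to 1.13 CPM, and feeder fibroblasts to 6.84 to 7.58 and 5.77 to 6.47 CPM. The 3 neural markers summed to 20.6 to 21.7 CPM in the wild-type libraries and 15.3 to 16.2 CPM in the knockout libraries, with Sox1 past the test; the part of such cells in the TRIM values was not tested. The 4 tested genes of chromosome Y had a median log2 fold change of -4.15, and the 653 tested genes of chromosome 8 one of -0.06. No tested member, as defined by symbol, lies on chromosome X, Y or 8, while Mid1 (TRIM18), given below among the related genes, lies on X. Any difference between the lines other than Pml goes with genotype in this design, and its part in the TRIM values was not tested. The labels name a DNA library kit alone for wild-type library 2 and an RNA kit for the other 3, of which knockout library 2 carries both names. Where levels below are set against each other, the wild-type libraries come first and library 1 precedes library 2.

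Sequence upstream of the genes is shown for the members with an interferon-stimulated response element, because many antiviral members are induced by interferon and this is the sequence through which interferon signals act. RefSeq start-site windows (GRCm38.p6, the build also called mm10) were found for 50 of the 66 members. The element was searched in the 250 bases before each start as GAAANNGAAA on both strands. It was present in 4 of 64 windows of members (6.25%) and in 2.98% of all 32851 windows in the table. The windows belonged to Trim12c, Trim26, Trim30a and Trim30d. Each is printed 5′ to 3′ on the strand of the gene with the element in capitals; in Trim26 a pair of overlapping matches forms a longer run.
Trim12c, chr7:104353350-104353408, minus strand: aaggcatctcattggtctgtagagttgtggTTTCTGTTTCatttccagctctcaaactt
Trim30a, chr7:104465194-104465259, minus strand: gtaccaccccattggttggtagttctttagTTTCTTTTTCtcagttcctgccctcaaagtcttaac
Trim30d, chr7:104507851-104507920, minus strand: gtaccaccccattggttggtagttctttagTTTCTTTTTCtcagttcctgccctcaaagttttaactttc
Trim26, chr17:36836956-36837031, plus strand: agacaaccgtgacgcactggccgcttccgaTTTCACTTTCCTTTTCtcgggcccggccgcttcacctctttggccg
In Trim12c, Trim30a and Trim30d the element began 29, 36 and 41 bases before the start. The Trim30a and Trim30d windows were identical at 226 of 245 aligned bases (92.2%), so these genes are near copies upstream as well. Their reads may be shared, as the counting of reads that match several genes was not stated. The levels of these 4 genes ranged widely. Trim26 stood at 68.2 to 73.9 CPM and Trim12c at 3.68 to 5.91 CPM, while Trim30a and Trim30d had at most 0.13 CPM in any library.

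Between genotypes, 29 of the 36 tested TRIM genes had an absolute log2 fold change under 0.25. The median absolute log2 fold change of the 36 was 0.15, above the 0.09 of all tested genes. Of the 36 tested, Trim2 rose and Trim8 fell in the knockout, and 34 did not pass an adjusted p of 0.05 (limma on log2(CPM + 1) over the 12710 genes that averaged 1 CPM or more). The called share was 5.56% of members against 5.41% of all tested genes, so the family was called about as often as the table. By direction, 1 of 36 members was called higher against 1.95% of all genes, and 1 of 36 lower against 3.45%. An unadjusted limma p under 0.05 was found for 9 of 36 members (25.0%) and for 19.3% of all genes. The edgeR quasi-likelihood test on reads recovered from the CPM values called the same 2 members, as did TMM scaling and another pseudocount. DESeq2 on the recovered reads, a filter of 5 CPM and no filter on low values each called Trim8 alone.

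**Figure D1:**
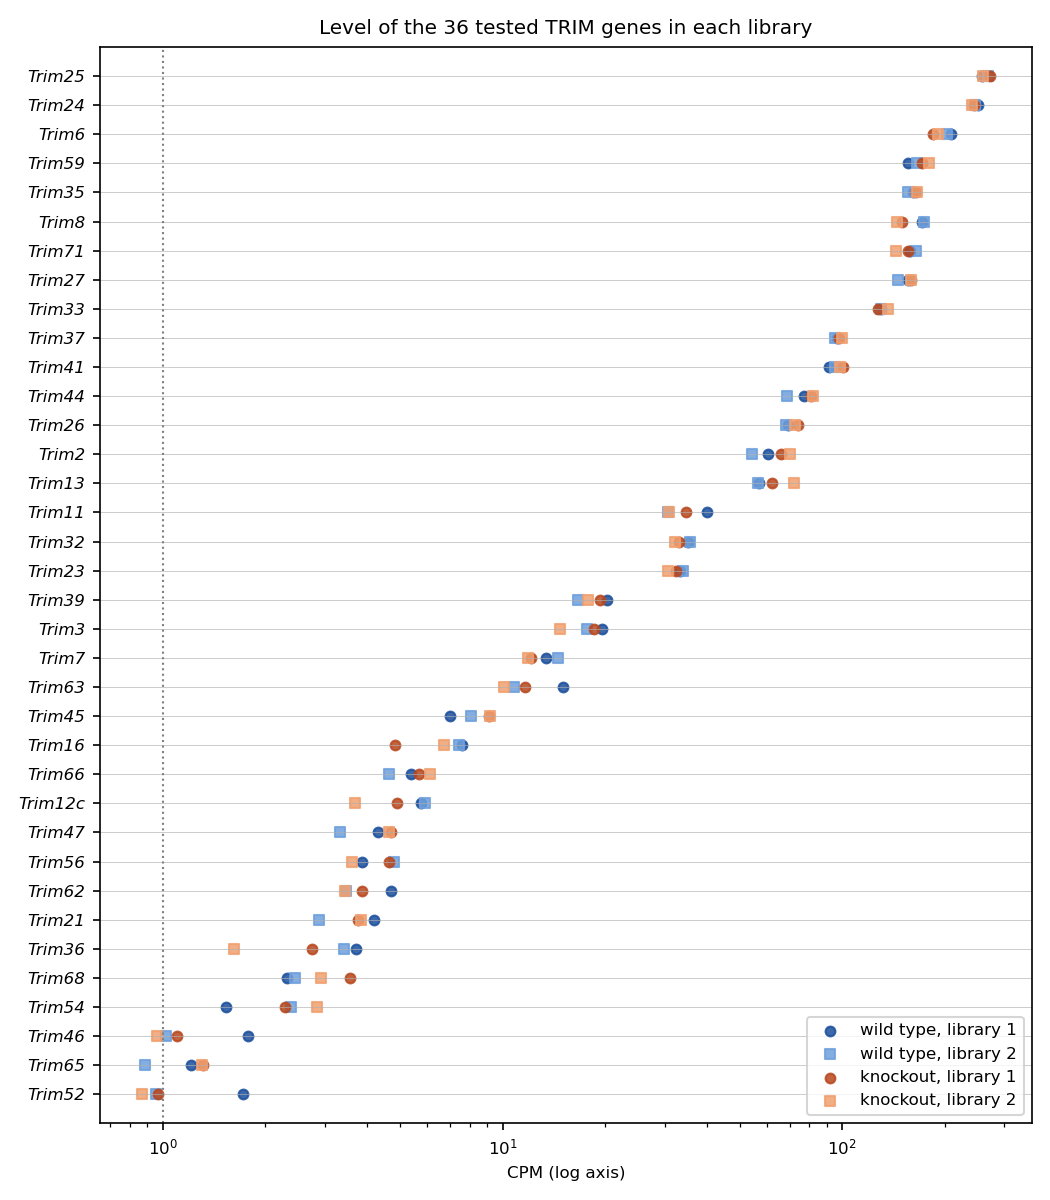
CPM of the 36 tested TRIM genes (rows, ordered by mean) in each of the 4 libraries, on a log axis; blue marks are wild type, orange marks the knockout, and the dotted line is the 1 CPM filter. The 4 marks of a gene lie close together for most genes above 10 CPM and spread more below it; means run from 1.13 CPM (Trim52) to 265 CPM (Trim25).

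Trim8, a RING ligase that acts on cytokine and NF-κB signalling, was expressed at 172 and 174 CPM in the wild-type libraries and at 150 and 145 CPM in the knockout libraries. Both knockout values lay below both wild-type values, and the gap between the groups was several times the gap within either. Its level fell by 14.9%, from 173 ± 1.48 to 147 ± 3.01 CPM (SD, n = 2 each), with a log2 fold change of -0.23 (SE 0.047, limma adjusted p = 0.00845). The gene lies on chromosome 19 from 46501648 to 46516805 (mm10) and overlaps no other gene in the RefSeq table. The call held in all 11 alternatives, including the leaving out of each library (adjusted p from 0.00160 to 0.0349, and 0.0289 without wild-type library 2, whose label names the DNA kit alone, and 0.0327 without knockout library 2, whose label names both kits).

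Trim2, an NHL-repeat ligase known for its role in axons of neurons, was expressed at 60.5 and 54.2 CPM in the wild-type libraries and at 65.8 and 69.98 CPM in the knockout libraries. Both knockout values were higher than both wild-type values, with wild-type library 1 nearest to the knockout. Its level rose 1.18-fold, from 57.4 ± 4.44 to 67.9 ± 2.94 CPM (SD, n = 2 each), with a log2 fold change of 0.24 (SE 0.066, limma adjusted p = 0.0465). This call rested on single libraries: leaving out wild-type library 2 gave an adjusted p of 0.279 and leaving out knockout library 2 gave 0.225, within a range of 0.00845 to 0.279 over 11 alternatives. It also missed the threshold with no filter on low values (adjusted p = 0.112), with a filter of 5 CPM (adjusted p = 0.0525) and with DESeq2 (adjusted p = 0.0529). The gene lies on chromosome 3 from 84160439 to 84308352 (mm10), where RefSeq also places the pseudogene Gm6525 (556 bases shared, 0.15 CPM), a tRNA gene (71 bases shared) and the long noncoding RNA Gm40078. The last shares 29460 bases with the span of Trim2 and has no value here.

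The members nearest the threshold on its other side were Trim13, Trim36 and Trim6. Trim13, a ligase anchored in the endoplasmic reticulum membrane, stood at 56.9 and 56.5 CPM in the wild-type libraries and 62.1 and 71.9 CPM in the knockout libraries (log2 fold change 0.23, adjusted p = 0.0636). The groups did not overlap, and the knockout libraries differed from each other by more than the wild-type libraries did. Its locus on chromosome 14 is shared with Kcnrg (0.92 CPM) and the noncoding Dleu2 (0.95 CPM). Trim36, a microtubule-binding ligase also known from sperm, stood at 3.70 and 3.42 CPM in the wild-type libraries and 2.75 and 1.62 CPM in the knockout libraries (log2 fold change -0.54, SE 0.18, adjusted p = 0.0975). This was the lowest log2 fold change among the tested members, and it came from 71 to 151 reads per library. Trim6, a PRY-SPRY ligase reported to act on Myc in embryonic stem cells, stood at 209 and 204 CPM in the wild-type libraries and 185 and 191 CPM in the knockout libraries (log2 fold change -0.13, adjusted p = 0.114). Trim13 passed the threshold without knockout library 1 (adjusted p = 0.00972; range 0.00972 to 0.417 over its alternatives). Trim36 passed without that library (adjusted p = 0.0296) or without wild-type library 2 (adjusted p = 0.04997; range 0.0244 to 0.546).

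**Figure D2:**
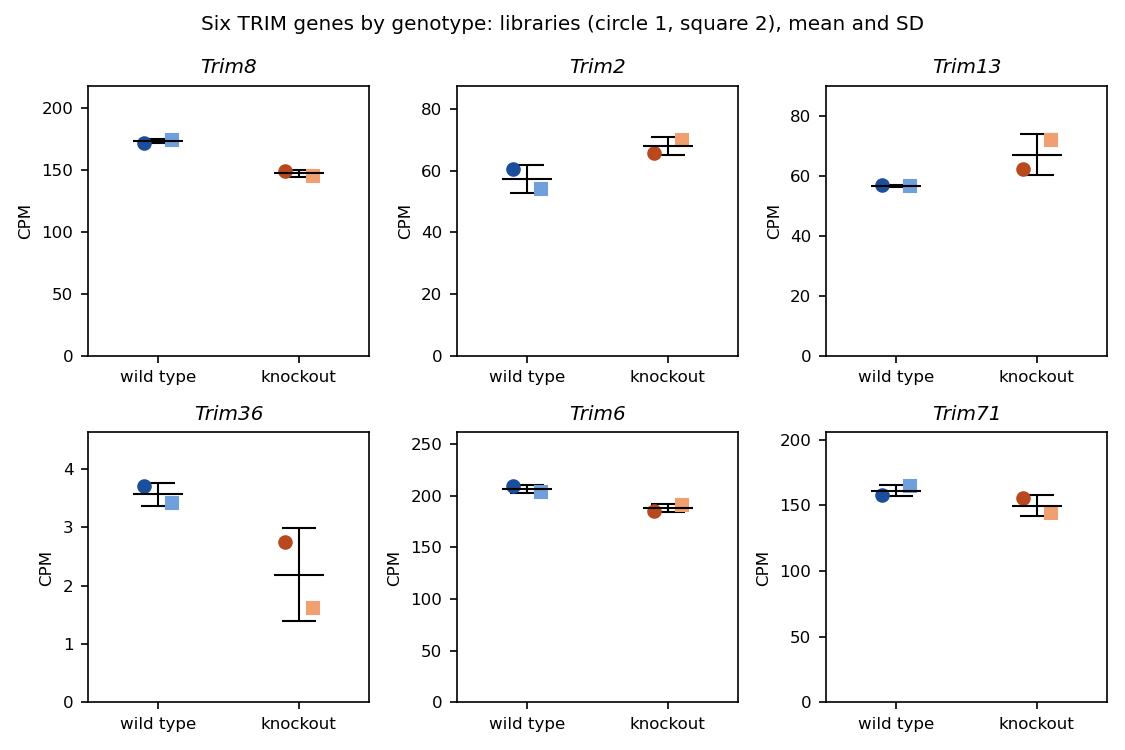
CPM of 6 TRIM genes by genotype, each panel with its own axis from 0; circles are library 1 and squares library 2 of a genotype, and the bars give the mean and SD of 2 libraries. Trim8 (173 against 147 CPM) and Trim2 (57.4 against 67.9 CPM) passed the test, and Trim13, Trim36, Trim6 and Trim71 did not.

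The PHD-bromodomain members act on chromatin. All 3 were tested and 0 passed by limma, with 0 at an unadjusted p under 0.05 and 0 by edgeR. Of all tested genes 5.41% passed limma, so 0 of 3 says little about this class. Trim24, which binds histone H3 tails and promotes the turnover of p53, stood at 250 and 246 CPM in the wild-type libraries and 244 and 241 CPM in the knockout libraries. The groups did not overlap and differed by little (log2 fold change -0.03, 95% interval -0.13 to 0.06). Trim33, a partner of Smad proteins in nodal and TGF-β signalling, stood at 130.4 and 130.3 CPM in the wild-type libraries and 127 and 137 CPM in the knockout libraries, so the wild-type values lay between the knockout values (log2 fold change 0.02, 95% interval -0.09 to 0.12). Trim66, best known from the testis, was expressed at a lower level, with 5.38 and 4.62 against 5.66 and 6.11 CPM (log2 fold change 0.20, 95% interval -0.09 to 0.48).

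Of the 4 NHL-repeat members, Trim2 was called higher, a call that rested on single libraries as given above, and the other 3 did not pass. Trim71 stood at 158 and 164 CPM in the wild-type libraries and 156 and 144 CPM in the knockout libraries (log2 fold change -0.11, 95% interval -0.22 to 0.004, adjusted p = 0.278). Its groups did not overlap, but knockout library 1 was close to wild-type library 1. Trim32, a ligase studied in muscle and in neural progenitors, stood at 35.1 and 35.6 against 33.1 and 32.1 CPM (log2 fold change -0.11). Trim3, a brain-enriched relative of Trim2, stood at 19.6 and 17.7 against 18.6 and 14.8 CPM with overlapping groups (log2 fold change -0.16).

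The antiviral set has 11 symbols in the table, of which 5 were tested. None passed by limma, with 1 (Trim12c) at an unadjusted p under 0.05 and 0 by edgeR. Of all tested genes 5.41% passed limma and 19.3% had an unadjusted limma p under 0.05, so counts in 5 genes say little about the set. Log2 fold changes of the 5 ran from -0.38 to 0.10. Trim25, which ubiquitinates the RNA sensor RIG-I, was at 258 and 269 CPM in the wild-type libraries and 272 and 260 CPM in the knockout libraries, with overlapping groups (log2 fold change 0.01, 95% interval -0.08 to 0.11). Trim26 was at 69.2 and 68.2 against 73.9 and 72.5 CPM (log2 fold change 0.09). Trim12c, a mouse relative of the retroviral restriction factor TRIM5, was at 5.77 and 5.91 against 4.88 and 3.68 CPM (log2 fold change -0.38, adjusted p = 0.15). Trim12a, a gene of similar name nearby on chromosome 7, had 0 reads in every library. As the handling of reads that match several genes was not stated, this may not mean that it is silent. Trim21, the cytosolic receptor for antibody-coated viruses, was at 4.17 and 2.88 against 3.75 and 3.82 CPM, and Trim56 at 3.86 and 4.80 against 4.64 and 3.61 CPM. Both had overlapping groups.

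Across the other classes, the PRY-SPRY class had 34 members, 15 of them tested. By limma 0 of the 15 passed, with 2 (Trim6 and Trim12c) at an unadjusted p under 0.05 and 0 by edgeR. Of all tested genes 5.41% passed limma and 19.3% had an unadjusted limma p under 0.05, so counts in 15 genes say little about the class. Log2 fold changes of the 15 ran from -0.38 to 0.32 with a median of 0.06. The top of that range was Trim68, at 2.33 and 2.45 CPM in the wild-type libraries and 3.56 and 2.93 CPM in the knockout libraries (adjusted p = 0.269). Trim27, which regulates endosomal sorting, had means of 151 and 159 CPM in wild type and knockout. Those of Trim41 were 93.4 and 99.5 CPM. Trim35, among the 5 members with the highest CPM, was at 162 and 156 against 165 and 166 CPM (log2 fold change 0.06, adjusted p = 0.567). Of the 2 membrane-anchored members, Trim59 was at 157 and 166 against 171 and 180 CPM (log2 fold change 0.12, adjusted p = 0.191) and Trim13 is given above. Trim37, the single MATH-domain member, with a role at centrosomes, was at 96.3 and 95.2 against 97.8 and 99.6 CPM. Trim23, which carries an ARF GTPase domain, was at 33.3 and 33.9 against 32.4 and 30.7 CPM. Trim45, the filamin-type member, was at 6.98 and 8.09 against 9.15 and 9.15 CPM (log2 fold change 0.25, adjusted p = 0.262).

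The muscle RING finger (MuRF) ligases of the family stood at 15.0 CPM at most in any library. Trim63 (MuRF1) was at 15.0 and 10.8 against 11.6 and 10.1 CPM, Trim54 (MuRF3) at 1.53 and 2.38 against 2.28 and 2.84 CPM, and Trim55 (MuRF2) had 0 reads in every library. Trim63 passed the threshold only without wild-type library 2 (adjusted p = 0.0312), and without wild-type library 1 its log2 fold change went from -0.22 to 0.0007 (adjusted p up to 0.999 over 11 alternatives). The remaining tested members without a RING finger were Trim44, with means of 73.0 and 81.5 CPM in wild type and knockout (log2 fold change 0.16, adjusted p = 0.164), and Trim16, with means of 7.51 and 5.77 CPM (log2 fold change -0.34, adjusted p = 0.199). Trim7, Trim11, Trim39, Trim47 and Trim62 of the PRY-SPRY class had log2 fold changes from -0.21 to 0.24. Trim46, a microtubule-binding member whose locus overlaps Krtcap2 (40.1 CPM), had one of -0.22 (adjusted p = 0.582).

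**Figure D3:**
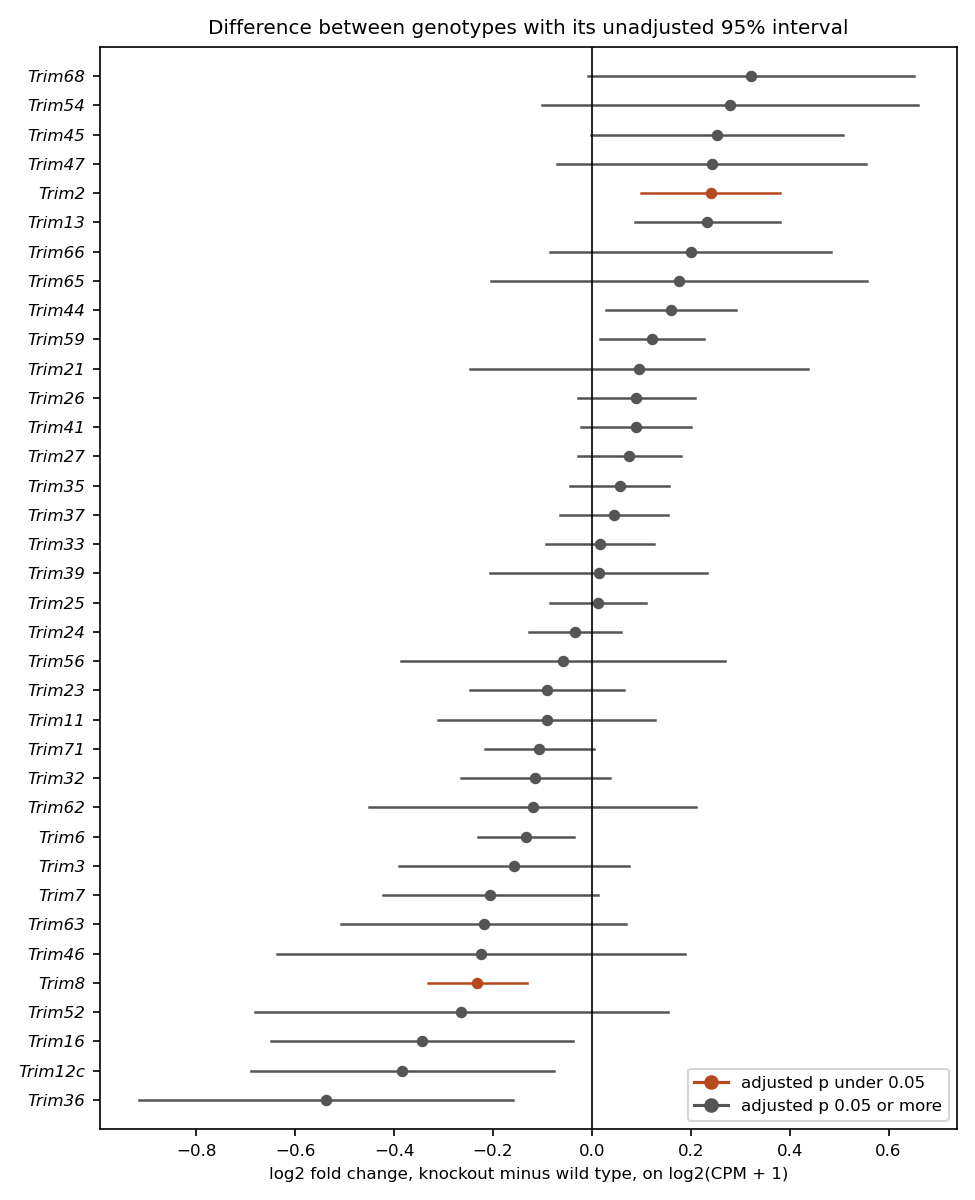
Log2 fold change (knockout minus wild type, on the log2(CPM + 1) scale) of the 36 tested TRIM genes with the unadjusted 95% interval from limma; orange marks genes with an adjusted p under 0.05. Intervals of 27 genes include 0, and the called genes Trim2 (0.24) and Trim8 (-0.23) are neither the highest nor the lowest estimates.

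Across the 36 tested members, estimates lay on both sides of 0: 19 estimates were above it and 17 below, with a median of 0.01, against a median of -0.003 over all tested genes. In 14 members (38.9%) both knockout libraries were above both wild-type libraries, against 23.8% of all genes, and in 10 (27.8%) both were below, against 25.5%. The median absolute log2 fold change was 0.15 in the members and 0.09 in all tested genes. Between libraries of the same genotype the members' median absolute log2 difference was 0.09 in wild type and 0.08 in the knockout. The size of the estimates went with level. The 14 members with a mean of 1 to 10 CPM had a median absolute log2 fold change of 0.25 and a median standard error of 0.15, the 13 at 10 to 100 CPM had 0.11 and 0.07, and the 9 above 100 CPM had 0.08 and 0.05. Over all genes in these bands the median absolute log2 fold changes were 0.14, 0.08 and 0.06, so the members lay above them in each band. The genotypes did not overlap in 8 of 14, 9 of 13 and 7 of 9 members of these bands, against 45.5%, 49.4% and 54.1% of all genes. The share was higher in the members in each band. No set test was made, and these counts are a description.

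**Figure D4:**
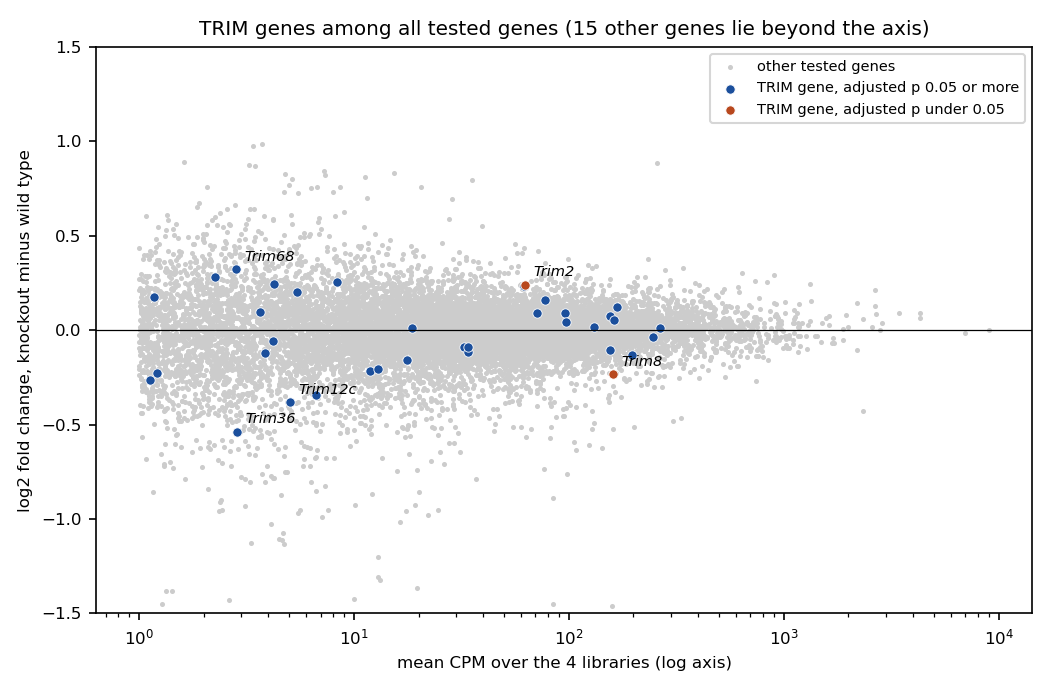
Log2 fold change (knockout minus wild type) against mean CPM over the 4 libraries (log axis) for all tested genes (grey) and the TRIM genes (blue, or orange where the adjusted p was under 0.05). The TRIM genes spread more widely at low levels, from -0.54 for Trim36 to 0.32 for Trim68, and the 9 above 100 CPM lie within 0.25 of 0; the mark of Trim13 lies behind that of Trim2, and 15 other genes fall beyond the axis limit of 1.5.

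The 30 members under the filter had means of 0.87 CPM or less. Just inside the filter lay Trim52, at 1.72 and 0.95 against 0.97 and 0.87 CPM, and Trim65, at 1.21 and 0.88 against 1.31 and 1.30 CPM. Just outside lay Trim72, a membrane repair gene of muscle, at 1.08 and 0.75 against 0.84 and 0.82 CPM, and Trim14, at 0.35 and 0.97 against 0.66 and 1.24 CPM. Trim14, which lacks a RING finger, had 11 to 54 reads per library, and its CPM differed more between libraries of 1 genotype than between the genotype means. No read was found for Trim12a, Trim30b, Trim42 and Trim55 in 157381091 reads, which allows a level of up to 0.0191 CPM over the 4 libraries (3 reads, counting error only). That limit does not cover reads left out because they match several genes. A further 10 members were above 0 and under 0.1 CPM. Of the low members chosen after their values were seen, Trim69, which overlaps Patl2 (21.5 CPM), had 10 reads in each wild-type library and 2 in each knockout library, and Trim50 had 11 and 21 against 5 and 8. Neither was tested in the fit described, and neither had a false discovery rate under 0.05 in the authors' deposited table (0.0722 and 0.17). That table, with 3.8% of its 24421 genes under 0.05, had the same 2 members under it, Trim8 (0.00502) and Trim2 (0.0291).

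Several members are neighbours on a chromosome, and in several of these groups expressed and near-silent genes lie side by side. On chromosome 7, 9 members lie in an array between 104218795 and 104535361 (mm10), each within 50.4 kb of the next. Trim6, at the start of that array, had a mean of 197 CPM, Trim12c had 5.06 CPM, and the other 7 were under 0.6 CPM, among them Trim34a at 0.47 CPM, 9.29 kb from Trim6. On chromosome 17 Trim26 (70.9 CPM) is followed after 1.29 kb by Trim15 (0.17 CPM) and then by Trim10, Trim40 and Trim31, each under 0.1 CPM. On chromosome 11 Trim17 (0.22 CPM) lies 0.65 kb from Trim11 (34.1 CPM). Other neighbours were alike in passing the filter or not: on chromosome 11 Trim41 (96.4 CPM) and Trim7 (13.0 CPM), and Trim47 (4.24 CPM) and Trim65 (1.18 CPM), were all tested, while on chromosome 8 Trim75, Trim60 and Trim61 had 0.24, 0.19 and 0.18 CPM. The span of Trim61 lies within that of Trim60 (5713 bases shared), so their levels may not be separate. The levels of all these neighbours are not corrected for gene length, so an order between genes with close values is not given. The handling of reads that match several genes was not stated, so low values of similar genes may also reflect it.

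**Figure D5:**
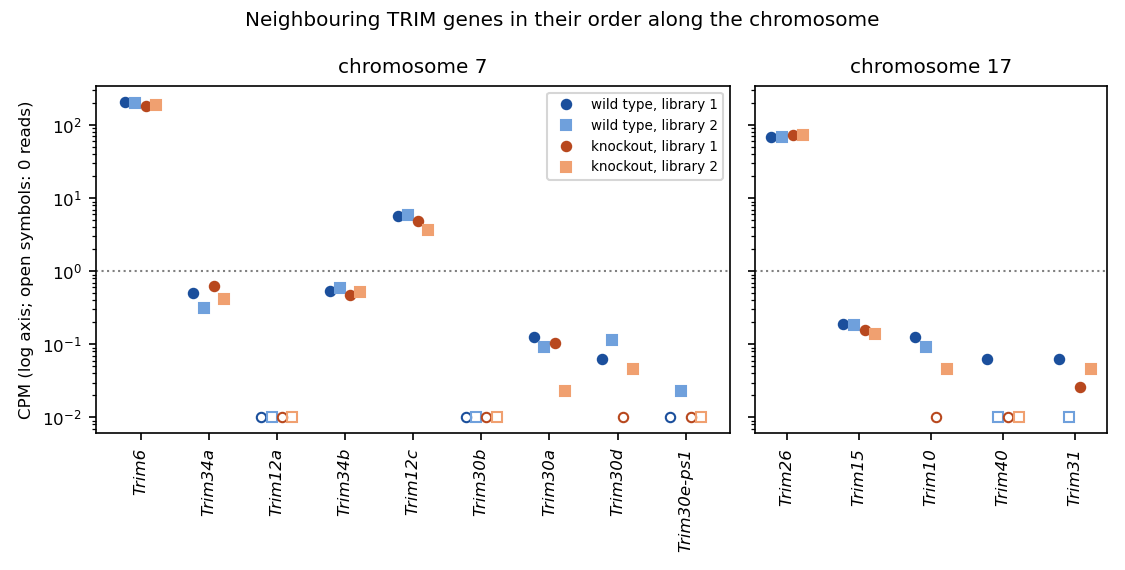
CPM (log axis) of the neighbouring TRIM genes of chromosome 7 and chromosome 17 in their order along the chromosome, for each of the 4 libraries; open symbols, drawn at 0.01 CPM, are libraries with 0 reads, and the dotted line is 1 CPM. Only Trim6 and Trim12c in the first array and Trim26 in the second lie above the line.

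The RefSeq windows were also described by base composition, with no test. The 39 windows of tested members had a median of 12 CpG dinucleotides and a GC content of 57.2%, the 25 windows of members under the filter had 3 and 46.4%, and all windows in the table had 6 and 52.4%. A GC box (GGGCGG on either strand) was found in 53.8% of windows of tested members, in 4.0% of windows of members under the filter and in 32.7% of all windows. The antioxidant response element (TGACNNNGC on either strand), which NRF2 binds, was found in 10.3% of windows of tested members (4 of 39), in 20.0% of windows of members under the filter (5 of 25) and in 10.2% of all windows. Genes with several start sites gave several windows, 5 in the case of Trim2, and near copies share sequence, so windows are not independent. Among the low members with the antioxidant element, Trim60 and Trim61 had the identical window, counted for each, and the Trim15 windows overlapped. The 20.0% share thus counts some bases more than once.

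Genes that work with TRIM proteins were taken from a list of 53 symbols. It held TRIM proteins with other symbols, E2 enzymes that RING fingers use for ubiquitin or a related protein, and partners or substrates. Of the 53 symbols, 51 were in the table and 45 were tested. Limma called 2 higher and 3 lower, 11.1% of those tested, against 5.41% of all tested genes. The list was chosen by hand with earlier results of these data known, so these shares are a description and not a test. The count called was 3 with edgeR, with DESeq2 and with no filter on low values. Among the 12 E2 enzymes, Ube2l6, which charges ISG15 and works with Trim25 in conjugating it, fell from 7.11 and 8.09 CPM to 2.70 and 4.19 CPM. The groups did not overlap, and the fall was 2.21-fold (log2 fold change -0.97, SE 0.16, adjusted p = 0.00232). Isg15 itself had 2 reads in each genotype. Ube2d2a, a general ubiquitin E2, was at 104 and 107 against 117 and 125 CPM (log2 fold change 0.20, adjusted p = 0.0414). Leaving out wild-type library 1 or knockout library 2 ended its call (adjusted p = 0.221 and 0.209; lowest 0.0112 over 11 alternatives). So did edgeR (adjusted p = 0.0502), DESeq2 (adjusted p = 0.058) and the fit with no filter (adjusted p = 0.0909).

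Among 30 tested partners and substrates, Lin28a rose and Cdkn1a and Zc3hav1 fell. Lin28a, which blocks maturation of let-7, the microRNA that represses Trim71, rose from 190 and 184 CPM to 227 and 228 CPM (log2 fold change 0.28, SE 0.045, adjusted p = 0.00189). The knockout libraries were nearly equal and above both wild-type libraries. Cdkn1a, a messenger RNA that Trim71 is known to repress and also a p53 target, fell from 170 and 195 CPM to 144 and 146 CPM (log2 fold change -0.33, SE 0.058, adjusted p = 0.00389). Zc3hav1, the antiviral protein ZAP that needs Trim25 as cofactor, was at 82.8 and 86.4 against 75.7 and 70.1 CPM (log2 fold change -0.21, adjusted p = 0.0457). Leaving out any library but knockout library 1 ended the Zc3hav1 call (adjusted p = 0.0611, 0.175 and 0.237; lowest 0.0134 over 11 alternatives). So did TMM scaling (adjusted p = 0.0515), edgeR (adjusted p = 0.0511), DESeq2 (adjusted p = 0.0799) and the fit with no filter (adjusted p = 0.0969). The calls of Ube2l6, Lin28a and Cdkn1a held in all 11 alternatives. Of the TRIM proteins with other symbols, Mid1 (TRIM18), on chromosome X, stood at 167 and 120 against 171 and 131 CPM, with library 1 higher in both genotypes and overlapping groups (log2 fold change 0.08, adjusted p = 0.767). Its estimate rested on single libraries, at 0.32 when wild-type library 1 was left out (adjusted p = 0.000714) but -0.15 when library 2 of that genotype was (adjusted p = 0.204; highest 0.958 over 11 alternatives). Bspry and Rnf207 did not pass either (adjusted p = 0.234 and 0.322; Bspry 0.0248 without wild-type library 2, with a highest value of 0.838), and Mid2, Mefv and Cmya5 were under the filter.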

How the data were processed

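The submitters' processing notes name cutadapt, TopHat and edgeR as tools and mm10 as the build. Versions, annotation, use of strand and the handling of reads that match several genes were not stated in them. The authors deposited 1 table with CPM per library, their own log2 fold change and log2 mean CPM, and p-value columns with and without false discovery correction. CPM values were whole multiples of 1 read for 100% of values (tolerance 0.001 reads), which gave the read totals.

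Members and gene lists were chosen with earlier results of these data known. All genes averaging 1 CPM or more were fitted with limma-trend 3.58.1 (R 4.3.3) on log2(CPM + 1), with genotype alone in the model, Benjamini-Hochberg adjustment over all of them and a threshold of 0.05. Fold changes on this scale understate the change of low genes. Alternatives used other filters, pseudocount, scaling, a replicate block, edgeR 4.0.16 and DESeq2 1.42.0 on recovered reads, and each library left out. Values per library are given for called members, for the chromatin, NHL and antiviral sets, for the 5 with the highest CPM and for those nearest the thresholds; other members are named for their class, and those picked by value are so described. Gene positions and promoters came from RefSeq (GRCm38.p6), where all 66 symbols matched.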

Additional observations from a re-analysis of the deposited data

How the results depend on the processing

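Over 11 alternatives the count of TRIM genes called higher (1) became 0 with no filter on low values, 0 with a filter of 5 CPM, 0 with DESeq2 and 2 with the replicate block, and 0 to 2 when single libraries were left out. The count called lower (1) became 2 with the replicate block and 1 to 3 when libraries were left out. Trim8 was among the calls in each of the 11; without wild-type library 2 they were Trim8, Trim36 and Trim63, and without knockout library 2 Trim8 alone. For all genes the count (687) became 298 with no filter, 1198 with the replicate block and 423 to 879 without single libraries. For the list of partner genes (5) it became 3 with no filter, with edgeR and with DESeq2, 8 with the replicate block, and 3 to 8 without single libraries. The replicate block added Trim13 (adjusted p = 0.0124) and Trim36 (adjusted p = 0.0244). Deviations of same-numbered libraries correlated at 0.12 over genes. The labels do not say whether a number marks a shared culture or day, so whether the numbers pair the libraries is not known. Over all 36 tested members and 12 other genes, the sign changed for 10 when single libraries were left out: log2 fold changes ran from -0.2799 to 0.098 for Trim11, -0.113 to 0.303 for Trim21, -0.0173 to 0.0432 for Trim25, -0.0358 to 0.0668 for Trim33, -0.122 to 0.1491 for Trim39, -0.4561 to 0.0071 for Trim46, -0.2022 to 0.0873 for Trim56, -0.2935 to 0.054 for Trim62, -0.4382 to 0.0007 for Trim63 and -0.1542 to 0.3207 for Mid1. Of these, Trim63 and Mid1 were each called in 1 alternative and the other 8 in none. Genes under 5 CPM, 10 of them members, have no value under the filter of 5 CPM. The cause of these changes was not tested. Standard errors were largest for the members under 10 CPM (median 0.15).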
